A study of Equus caballus with 8 samples.

Results

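The genes described here encode the platelet-derived growth factor (PDGF) ligands and receptors and the hepatocyte growth factor (HGF) ligand and its receptor. They were chosen by gene symbol, with earlier results of these data known, as PDGFA, PDGFB, PDGFC, PDGFD, PDGFRA, PDGFRB, PDGFRL, HGF and MET, and all 9 had a row among the 15266 named genes. The cells were equine BM-MSCs, that is, mesenchymal stem cells derived from bone marrow, a plastic-adherent stromal population that grows out of sternal aspirates. Marrow from each of 4 horses (D, J, L and W) was divided, so that each horse gave 1 untreated culture and 1 culture in medium with 1 ng/ml recombinant human TGF-β2, sequenced as 8 libraries of poly(A)-selected RNA. By the sample labels, the exposure began at isolation and lasted until passage 3 or 4. Per the study's methods, the medium of both groups held fetal bovine serum and basic fibroblast growth factor, and all horses were Thoroughbreds or Thoroughbred crosses. Each group therefore held 1 library per horse, and the libraries were compared in pairs from the same horse. Expression was given as a normalized count, the reads of a gene divided by a size factor for the library.

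PDGFs are dimeric mitogens for connective tissue cells. The A and B chains are secreted in active form, whereas PDGF-C and PDGF-D carry a CUB domain that a protease must remove. The receptor tyrosine kinase PDGFRα binds the A, B and C chains, and PDGFRβ binds mainly the B and D chains. HGF is a stroma-derived factor that acts through the receptor tyrosine kinase MET, mostly on epithelial and endothelial cells, and it is one of the paracrine products for which marrow stromal cells are known.

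Between 39184554 and 57228675 reads were counted per library over the named genes, and 3 reads corresponded to 2.02 to 3.60 normalized counts. The untreated library of horse J stood apart. It lay far from the other 3 untreated libraries, by Dixon's criterion for groups of 4, in 848 of 14907 genes (5.69%), against 126 to 281 genes (0.845% to 1.89%) for each of the other libraries. Where leaving out horse J changed the call of one of the 9 genes or of a signalling gene, the value without it is given beside the result. All 5 stromal markers listed (CD44, ITGB1, THY1, ENG and NT5E) were expressed, with a summed level of 138766 to 309522 normalized counts in untreated and 150975 to 250162 in treated cells, although THY1 was called lower, with a log2 change of -2.21. The 3 leukocyte markers analysed (PTPRC, ITGAL and ITGAM) summed to 58.3 to 184 and 35.7 to 108, with the highest value in the untreated library of horse J. The 2 endothelial markers analysed, CDH5 and KDR, summed to 7.10 to 26.3 in untreated and 30.0 to 55.7 in treated cells, without overlap. CDH5 alone overlapped, at 6.09 to 13.2 and 11.5 to 23.8, and was not called, with a log2 change of 0.52 (limma adjusted p = 0.264). KDR was called higher, but in untreated cells only horse J reached 10 normalized counts. It thus passed the filter on low values mainly through its treated libraries. The 6 mural markers (ACTA2, MYH11, CSPG4, RGS5, DES and CNN1) summed to 35443 to 175779 in untreated and 214850 to 576308 in treated cells, without overlap of the sums. ACTA2 alone held 31682 to 158391 and 189165 to 515281 of these counts. ACTA2, CNN1 and DES were significantly upregulated, although DES passed the filter on low values only through its treated libraries and so had to differ to be tested. MYH11, RGS5 and CSPG4 were not called, with log2 changes of -0.12, -0.31 and 0.35. The part of these markers in the results was not tested. In bulk RNA, fewer cells of a type and less RNA per cell cannot be told apart.

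TGF-β2-treated BM-MSCs had less HGF, PDGFD and PDGFRA and more PDGFA and PDGFB than untreated BM-MSCs of the same horses, in all 4 horses. Of the 9 genes, 5 were differentially expressed (Benjamini-Hochberg adjusted p under 0.05 in limma with the horse as a block, and an absolute log2 fold change over 1), 2 of them higher and 3 lower. Among all 14907 genes tested, 14.1% were differentially expressed, 6.83% higher and 7.31% lower. In 6 of the 9 genes the treated and untreated libraries did not overlap, against 27.8% of all genes tested. The 4 horses shared 1 direction in 7 of the 9 genes and in 51.9% of all genes. With no term for the horse the same 5 genes were called, beside 11.5% of all genes. The median log2 fold change of the 9 genes was -0.66, and that of all genes tested was 0.01. The median absolute log2 fold change was 1.57 for the 9 genes and 0.35 for all genes. All 9 genes passed the filter on low values, although PDGFB passed only through its treated libraries.

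**Figure D1:**
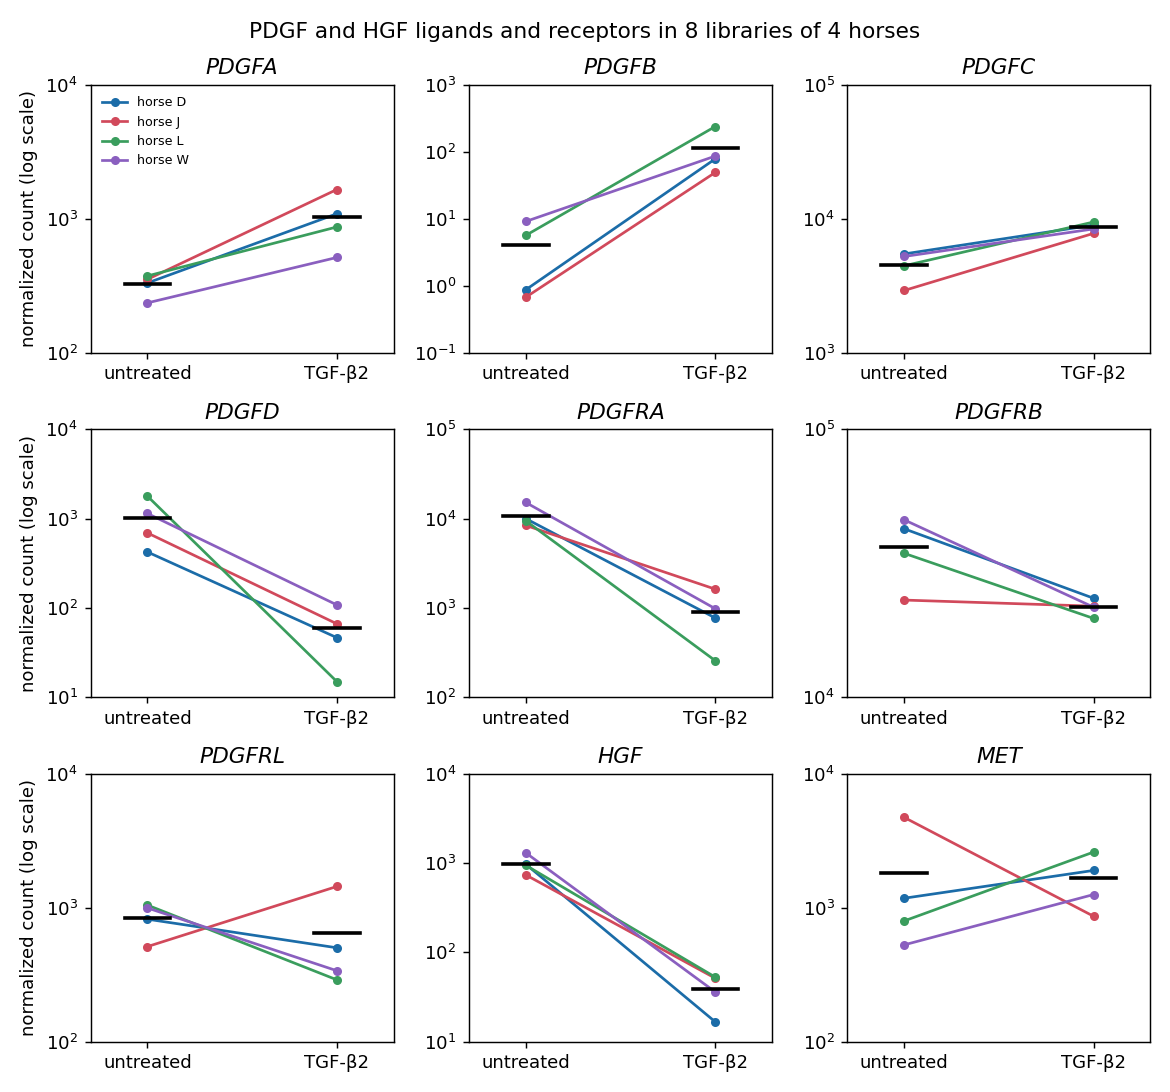
Normalized counts (log scale) of the 9 genes in BM-MSCs without and with TGF-β2. Each line joins the 2 libraries of 1 horse, and black bars are the means of 4 horses. HGF, PDGFD and PDGFRA fell and PDGFA and PDGFB rose without overlap, whereas the lines of horse J cross those of the other horses in PDGFRL and MET.

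The ligands of the PDGF family did not move together. PDGFA, a ligand of PDGFRα, had 332, 353, 374 and 235 normalized counts in the untreated cells of horses D, J, L and W. In the treated cells of the same horses it had 1091, 1655, 869 and 514. Every treated library lay above every untreated one, and horse W was the lowest in both groups. The mean rose from 323 ± 61.2 (SD, n = 4) to 1032 ± 478, or by 1.57 ± 0.21 (SE) on the log2 scale (limma adjusted p = 0.00615). The change in single horses ran from 1.12 in horse W to 2.23 in horse J. Of the 1018 genes called higher, PDGFA ranked 586 by log2 fold change.

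PDGFB, the chain that binds both PDGF receptors and that endothelial cells use to recruit pericytes, had almost no reads in untreated cells. The untreated libraries of horses D, J, L and W held 1, 1, 6 and 9 reads, or 0.870, 0.673, 5.65 and 9.13 normalized counts. In the treated libraries the reads numbered 66, 46, 208 and 72, or 78.6, 49.2, 239 and 86.5 normalized counts. PDGFB was thus below the floor of 3 reads in untreated cells of horses D and J and slightly above it in those of horses L and W. It had a low but measurable level in all 4 treated libraries. The rise was 4.65 ± 0.45 (SE) on the log2 scale (limma adjusted p = 0.00290), rank 61 among the genes called higher. Because it passed the filter only through the treated libraries, it had to differ between the groups to be tested at all. The size of the rise is loosely set, as the ratio of treated to untreated was 9.47 in horse W (95% exact interval from the reads 4.72 to 21.6) and 42.3 in horse L (19.1 to 117). In horse D it was 90.3 (15.7 to 3622) and in horse J 73.1 (12.5 to 2951), each against 1 read. These intervals cover counting error only.

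PDGFC, which is activated by tissue plasminogen activator and then binds PDGFRα, was higher in treated cells of all 4 horses but missed the fold threshold. Its untreated levels in horses D, J, L and W were 5465, 2915, 4457 and 5230.2 normalized counts. The treated levels were 8981, 7786, 9470.5 and 8403. The groups did not overlap, and the treated libraries differed little among themselves. The difference was 0.98 ± 0.14 (SE) on the log2 scale, with a 95% interval of 0.62 to 1.34 (limma adjusted p = 0.00813). Without horse D or without horse W it was called, at 1.06 and 1.07.

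PDGFD, a ligand of PDGFRβ, was the PDGF ligand that fell. Untreated cells of horses D, J, L and W held 424, 693, 1790.3 and 1144 normalized counts, and treated cells 46.5, 66.4, 14.9 and 108. Horse L had the highest untreated and the lowest treated level, whereas the other horses kept a similar change, from -3.16 to -3.39 on the log2 scale against -6.81 in horse L. The mean went from 1013 ± 598 (SD, n = 4) to 59.0 ± 39.0. On the log2 scale the change was -4.18 ± 0.65 (SE, limma adjusted p = 0.00933), rank 82 of the 1090 genes called lower. Without horse L it was -3.31, still called.

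The summed reads of the 4 ligand genes were higher in treated cells and differently divided. The sum went from 5857 ± 1278 (SD, n = 4) to 9865 ± 659 normalized counts, with an increase of 2492 to 5596 in every horse. The share of PDGFD in this sum was 6.81% to 27.0% in untreated and 0.141% to 1.19% in treated cells. PDGFA took 3.56% to 8.91% in untreated and 5.64% to 17.3% in treated cells, a mean difference of 4.61 percentage points with an SD of 2.92. The share of PDGFB was 0.0140% to 0.138% and 0.515% to 2.26%, and that of PDGFC 67.3% to 87.8% and 81.5% to 92.2%. All of these shares moved in the same direction in the 4 horses, although the ranges of PDGFA and PDGFC overlapped between groups. These are shares of reads not divided by transcript length, so they can be compared between libraries but not between genes. The exact sign-flip permutation test over 4 horses (two-sided) gave p = 0.125 for the sum, for each share and for the ratio of the 2 receptors, 6 quantities in all. That is the smallest p this design allows, and adjustment over the 6 left it at 0.125.

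**Figure D2:**
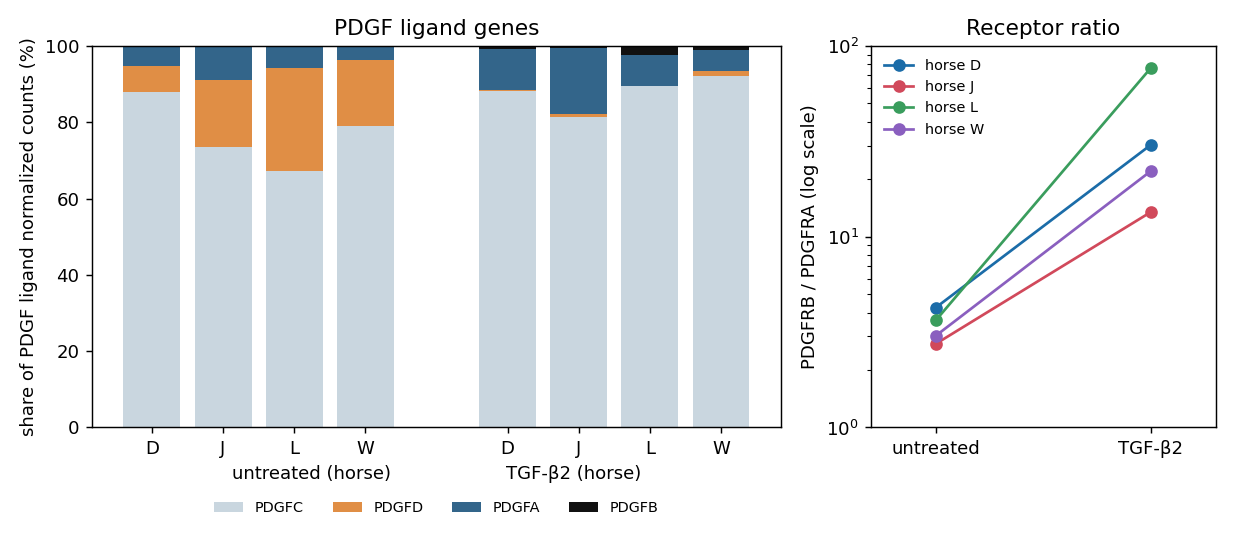
Left, share of each PDGF ligand gene in the summed normalized counts of the 4 ligand genes (%), by library. Right, ratio of PDGFRB to PDGFRA normalized counts (log scale), with 1 line per horse. The PDGFD share shrank to at most 1.19% in treated cells, and the receptor ratio was higher in the treated library of every horse.

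Of the receptors, PDGFRA, a marker of marrow stromal progenitors that binds PDGF-A, PDGF-B and PDGF-C, was strongly downregulated. Its untreated levels in horses D, J, L and W were 10013, 8402, 9461 and 15192 normalized counts, and its treated levels were 772, 1623, 256 and 980.3. Even the lowest untreated library was far above the highest treated one. The mean fell from 10767 ± 3025 (SD, n = 4) to 908 ± 566, a log2 change of -3.81 ± 0.43 (SE, limma adjusted p = 0.00411), rank 101 of the genes called lower. The fall was deepest in horse L, at -5.20, and shallowest in horse J, at -2.37. Leaving out horse J gave -4.28 ± 0.30 (SE).

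PDGFRB, the receptor of PDGF-B and PDGF-D and a marker of pericytes and marrow stroma, changed far less. Untreated cells of horses D, J, L and W had 42548, 23049, 34455 and 45945 normalized counts, and treated cells 23407, 21874, 19681 and 21676. The treated libraries lay close together, while the untreated library of horse J was near them and below the other untreated libraries. The difference of -0.71 ± 0.18 (SE) on the log2 scale, with a 95% interval of -1.16 to -0.25 (limma adjusted p = 0.0367), was short of the fold threshold. All 4 horses had a negative difference, only -0.08 in horse J against -1.08 to -0.81 in the others, and the groups overlapped. Leaving out horse J gave -0.92 ± 0.12 (SE). Without horse D, L or W the difference was -0.66, -0.67 or -0.58, and the limma adjusted p was then 0.142, 0.107 or 0.138, no longer under 0.05. Scaling each library to the same total moved the median of all genes by -0.31, and PDGFRB was then called at -1.02.

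The ratio of PDGFRB to PDGFRA within a library, which does not depend on the size factor, was 4.25, 2.74, 3.64 and 3.02 in the untreated and 30.3, 13.5, 76.8 and 22.1 in the treated cells of horses D, J, L and W. On the log2 scale it rose by 3.10 on average, with an SD of 0.90 and a range of 2.30 to 4.40 over the 4 horses. The direction was thus shared by all horses, and the exact permutation p was the 0.125 given above.

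PDGFRL, a secreted protein that resembles the extracellular part of the receptors and has no kinase, had no shared direction. Untreated cells of horses D, J, L and W had 822, 513, 1048 and 997 normalized counts, and treated cells 503, 1443, 289.7 and 339. It was lower in 3 horses and higher in horse J, which had the lowest untreated and the highest treated level. The difference of -0.66 on the log2 scale had a 95% interval of -2.05 to 0.74 (limma adjusted p = 0.410). Without horse J it was -1.37 (limma adjusted p = 0.0114), and PDGFRL was called lower.

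HGF had the largest decrease of the 9 genes. Untreated cells of horses D, J, L and W held 974, 739, 946 and 1306 normalized counts, and treated cells of the same horses only 16.7, 51.4, 52.9 and 36.0, from 14 to 48 reads. The groups were far apart in every horse, with a mean of 991 ± 235 (SD, n = 4) before and 39.2 ± 16.9 after treatment. This was a log2 change of -4.72 ± 0.36 (SE, limma adjusted p = 0.00171), rank 51 of the 1090 genes called lower. In single horses the change ran from -5.79 to -3.82. It was -5.02 without horse J.

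MET, the HGF receptor, moved in opposite directions in different horses. Untreated cells of horses D, J, L and W had 1179, 4733, 798 and 529 normalized counts, and treated cells 1902, 864, 2609.6 and 1257. The untreated library of horse J lay far above all the others, and in this horse MET changed by -2.45 on the log2 scale, against 0.69 to 1.71 in the other 3. Over the 4 horses the difference was 0.30 with a 95% interval of -1.42 to 2.02 (limma adjusted p = 0.769). It was -0.014 after total scaling. Without horse J it was 1.22 ± 0.20 (SE, limma adjusted p = 0.0103), and MET was called higher. HGF was thus lower in every horse while its receptor was not.

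**Figure D3:**
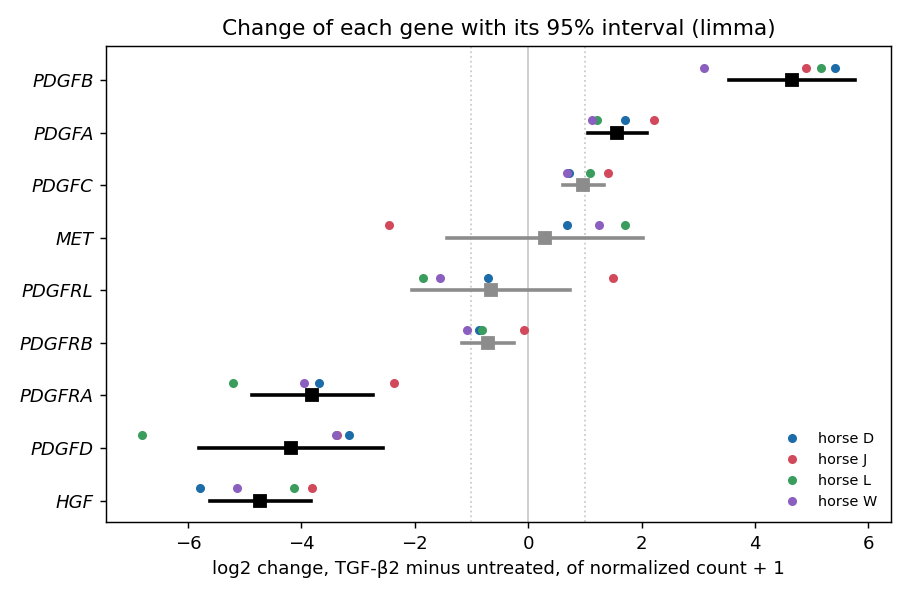
Log2 change of each gene, treated minus untreated, of the normalized count + 1. Squares are the limma estimates with 95% intervals (black where called, grey where not), coloured points are the 4 horses, and dotted lines mark -1 and 1. HGF, PDGFD and PDGFRA lie below -3 and PDGFB above 4, and the intervals of MET and PDGFRL span 0.

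By the call rule, 7 of the 9 genes were differentially expressed without horse J, with MET and PDGFRL added to the 5, beside 16.4% of all genes tested. In MET the untreated library of horse J departed from its group. In PDGFRL horse J had the lowest untreated level, and its treated level, 1443 normalized counts, was above 289.7 to 503 in the other treated libraries. The untreated library of horse J held the highest MET level and the lowest PDGFC, PDGFRB, PDGFRL, PDGFRA and HGF levels of the untreated libraries. Its PDGFB level was also the lowest, but from 1 read, as in horse D. Horse J also had the highest level of PTPRC, a leukocyte marker, without treatment, 109.7 against 1.74 to 41.5 normalized counts. The part of this in the values of horse J was not tested.

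Other genes of PDGF and HGF signalling were read from a list of 67, of which 59 were tested. Of these, 9 were called, 4 higher and 5 lower, beside 14.1% of all genes tested, and the median log2 fold change of the list was -0.05. Without horse D or without horse W only 3 of the 9 were called, beside 7.87% and 7.24% of all genes. Without horse J 15 genes were called, beside 16.4% of all genes. After total scaling 14 were called, 4 higher and 10 lower, beside 4.68% of all genes higher and 12.3% lower. A further 12 genes of the list had an adjusted p under 0.05 but missed the fold threshold. In all, 21 of the 59 had an adjusted p under 0.05, beside 4610 of all 14907 genes tested.

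The first group acts on the ligands before they reach a receptor. Of 7 genes tested for ligand activation and its inhibitors, 1 was called higher and 1 lower, beside 6.83% and 7.31% of all genes. PLAU, the urokinase that can also cleave pro-HGF, went from 44275 ± 21458 (SD, n = 4) to 17369.7 ± 477 normalized counts, while its receptor PLAUR had 2324 ± 863 and 6389 ± 1649. On the log2 scale PLAU changed by -1.19 and PLAUR by 1.49 (limma adjusted p = 0.0426 and 0.00977). In horse J, PLAU changed by only -0.01. PLAU lost its call without horse D, L or W, and PLAUR without D or W. PLAT, the tissue plasminogen activator that activates PDGF-C, was at -0.76 on the log2 scale (limma adjusted p = 0.159), with 0.55 in horse J against -1.65 to -0.69 in the others. Without horse J it was -1.20 (limma adjusted p = 0.00924), and PLAT was called lower. FURIN, a proprotein convertase, and SPINT2, an inhibitor of HGF-activating proteases, were at 0.67 and 0.97, both short of the fold threshold (limma adjusted p = 0.00589 and 0.0274). Without horse J, SPINT2 was called at 1.20 (limma adjusted p = 0.00707).

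Of 5 co-receptor and ligand-binding genes tested, 1 was called, beside 14.1% of all genes. This was SPARC, a matrix protein that binds PDGF-B, with a log2 change of 2.60 (limma adjusted p = 0.00487). NRP1, a co-receptor, had 0.97 and missed the fold threshold (limma adjusted p = 0.0388). It changed by 0.007 in horse J and by 1.02 to 1.49 in the others, and without horse J it was called at 1.29 (limma adjusted p = 0.00245).

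Inside the cell, 2 of 32 adaptor, kinase and relay genes were called, beside 14.1% of all genes. GAB2, a docking protein, rose by 2.77 on the log2 scale (limma adjusted p = 0.0223), with single horses from 1.15 in L to 4.93 in J, and 2.05 without horse J. FYN, a Src family kinase that binds activated PDGF receptors, had -1.09 (limma adjusted p = 0.0110). GAB2 and FYN lost their calls without horse D or W, and FYN also without horse L, where it fell just short of the fold threshold. Among all 14907 genes tested, 4610 had an adjusted p under 0.05 with any size of change, and in 51.9% the 4 horses shared 1 direction. Of the 32, a further 9 had an adjusted p under 0.05 with a smaller change, 4 lower and 5 higher, each in all 4 horses. The lower ones were the transcription factors STAT3 and STAT5A, at -0.90 and -0.71 on the log2 scale (limma adjusted p = 0.00290 and 0.00913), the kinase ERK1 (MAPK3) at -0.68 (0.00621) and PIK3R1, a regulatory subunit of phosphoinositide kinase, at -0.87 (0.0222). Without horse J, PIK3R1 was called at -1.10. After total scaling STAT3, STAT5A and PIK3R1 were called, at -1.21, -1.02 and -1.18. The higher ones were HRAS, NRAS, MAP2K1, MAP2K2 and AKT1, from 0.30 to 0.65. After total scaling they were at 0.34, 0.11, 0.25, -0.010 and 0.043, and none kept an adjusted p under 0.05. Nor did any of them without horse D, L or W. Of the lower ones, PIK3R1 lost it without horse D, L or W, and STAT5A without horse W. Among 8 brakes on receptor signalling, 1 was called, beside 14.1% of all genes. LRIG1, a membrane protein that limits MET and other receptors, was called with a log2 change of 1.87 (limma adjusted p = 0.0133), but not without horse D or W. SH2B3, an adaptor that dampens receptor kinase signals, had 0.70 (limma adjusted p = 0.101) and was called at 1.04 without horse J.

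Of 7 related receptors and ligands tested, 3 were called and all 3 were lower, beside 7.31% of all genes called lower. MST1R, which encodes RON, the closest relative of MET, had 239, 1225, 155 and 318 normalized counts in untreated and 32.2, 38.5, 35.6 and 21.6 in treated cells of horses D, J, L and W. As for MET, the untreated library of horse J was far above the others. MST1R fell in all 4 horses, with a log2 change of -3.43 ± 0.48 (SE, limma adjusted p = 0.00681). Without horse J it was -2.92. CSF1, the ligand of a receptor kinase of the PDGFR class, changed by -2.46 to -1.89 in every horse, or -2.17 in the fit (limma adjusted p = 0.00101). FLT3LG, the ligand of another kinase of this class, changed by -1.78 on the log2 scale (limma adjusted p = 0.0235) and lost its call without horse D or W. KITLG, the ligand of KIT, had -0.91 (limma adjusted p = 0.0726) and was called at -1.20 without horse L and at -1.23 after total scaling. CSF1R, the receptor of CSF1, had -1.20 (limma adjusted p = 0.157) and was called at -1.88 without horse J. Its reads were few, 9, 2, 156 and 62 in untreated and 1, 3, 30 and 17 in treated cells of horses D, J, L and W.

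**Figure D4:**
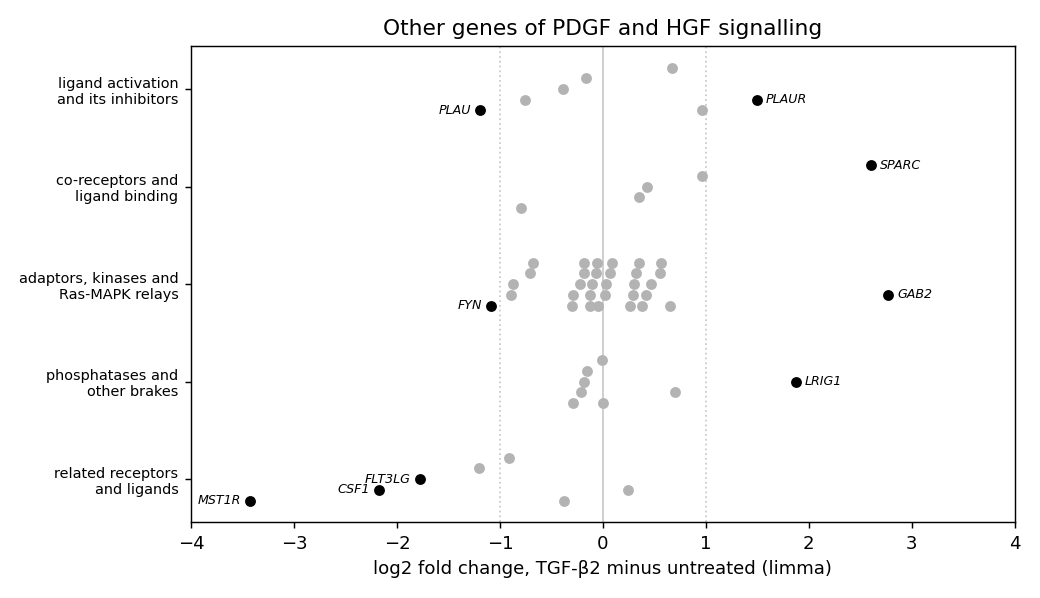
Log2 fold change (treated minus untreated, limma) of the 59 other genes of PDGF and HGF signalling, 1 point per gene, by role; height within a row has no meaning. Black points with names are the 9 called genes, and 30 of the 32 adaptor, kinase and relay genes are grey. Among all genes tested, 14.1% were called.

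The genes whose log2 changes over the 4 horses lay nearest to those of each called gene, by root mean square (RMS) difference, are named here. For HGF they were CITED4, DPYD and XG, at 0.43, 0.55 and 0.58. XG, for example, went from 8622 ± 1516 (SD, n = 4) to 356 ± 122 normalized counts. For PDGFRA the nearest were 2 genes named only by number, which RefSeq lists as long non-coding RNA genes (RMS 0.25 and 0.55) and SEMA3A (0.57), a secreted guidance factor. PDGFD was nearest to COL13A1 (0.69), which like PDGFD had its largest decrease in horse L, at -7.11 on the log2 scale, then to the same non-coding gene that was nearest to PDGFRA (0.99) and CCL11 (1.03). PDGFB was nearest to HTR2A, GRIA2 and the smooth muscle actin ACTG2 (0.56, 0.66 and 0.67), and PDGFA to TMPRSS7, DNMT3A and BGN (0.14, 0.15 and 0.18). GRIA2 had a mean of only 0.978 normalized counts in untreated cells. The non-coding gene at RMS 0.55 from PDGFRA had a mean of 1.93 in treated cells. Both means were below the floor of 3 reads, so the size of these changes is loosely set. With 4 horses and 14907 genes such neighbours are bound to exist, and they are given as a description only.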

How the data were processed

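Before deposit, the authors ran Trimmomatic 0.36 for trimming, STAR 2.5.2b for mapping to EquCab 3.0 and featureCounts (Subread 1.5.2) for unique hits per gene. They deposited DESeq2 normalized counts, a signal that is never negative. Of 15267 rows, 1 had no gene name (0.0281% to 0.0531% of the reads) and was left out. Dividing each library's values by the value of 1 read gave whole numbers throughout (100% within 0.001), so whole reads were recovered for depth and for count tests, and none of the libraries were identical.

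The 9 members and all gene lists were chosen with earlier results of these data known. The test was limma 3.58.1 with an intensity trend (R 4.3.3), applied to log2 of the normalized count + 1 for genes that reached 10 normalized counts in 4 or more libraries, with the horse as a block and Benjamini-Hochberg adjustment over 14907 genes. This scale understates the change of low genes. The study's thresholds were kept. Same-horse libraries deviated together (correlation across genes 0.39 to 0.61 for the 4 pairs), and each pair comes from the same animal. The correlation between horses was -0.16 on average. As deviations were taken from the group means, that negative value follows from the same-horse values and is no separate evidence. Replicates are horses, with 1 culture per horse and group, so that variation between cultures of a horse was not measured. The paired ratios and shares were tested by exact sign-flip permutation. Named were all members, all called genes of the signalling lists (at most 12), and the 3 nearest genes of each called member. Other signalling genes were named after their values were seen, from the 17 that pass the call under an alternative. Gene biotypes came from RefSeq (assembly TB-T2T), matched by symbol. Alternatives were no horse term, other pseudocounts, filters and scalings, DESeq2 1.42.0, edgeR 4.0.16, no fold threshold and each horse left out. On simulated counts limma with the horse recovered 197 of 198 tested genes changed by 2 on the log2 scale, with 1 other call among 15113. The simulation gave all horses the same change and all genes the same count variability. It therefore does not show how often genes with smaller changes, or changes that differ between horses, as in MET, are recovered. Of the signalling and marker lists, genes without a value were not analysed here, and neither were sequences. Of the signalling list 1 item is not reported here.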

Additional observations from a re-analysis of the deposited data

Results flagged for a closer look

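Of 82 groups of 4 values examined (the named genes, the ligand sum and shares and the receptor ratio, untreated and treated), 6 held a library far from the others by Dixon's criterion, where chance alone flags about 5%. Of these, 4 were the untreated library of horse J. Its MET level, 4733 normalized counts, stood against 529 to 1179 in the other untreated libraries. Its MST1R level was 1225 against 155 to 318. Its summed PDGF ligand level was 3961 against 6221 to 6627, and its MAP2K1 level 5029 against 3013 to 3337. The untreated library of horse D had 5421 normalized counts of PLAT against 2554 to 3014, and the treated library of horse W had 660 of SPINT2 against 399 to 440.3.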

How the results depend on the processing

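HGF, PDGFD, PDGFRA and PDGFA kept their direction and call under all 14 alternatives run on single genes, and PDGFB under the 13 in which it was tested, since the filter at 50 normalized counts removed it. Their log2 fold changes ran from -5.03 to -4.37 for HGF, -4.52 to -3.31 for PDGFD, -4.28 to -3.34 for PDGFRA, 1.26 to 1.72 for PDGFA and 3.58 to 5.16 for PDGFB, and their highest adjusted p was 0.0483, that of PDGFD. MET turned to -0.014 under total scaling, -0.17 without horse L and -0.018 without horse W, far from the threshold in all 3, and was 1.22 without horse J. MAP2K2 turned from 0.30 to -0.010 under total scaling. Without the replicate block, in place of the paired fit, 1709 genes were called against 2108, and the same 5 members and 9 signalling genes were called as with it. With horses left out in turn the calls over all genes ran from 1080 (without W) to 2442 (without J), 1173 without D, and those of the signalling list from 3 to 15. With no fold threshold 4610 genes and 21 signalling genes were called. Total scaling gave 27.6% of calls higher against 48.3% under the deposited normalization, and 14 calls in the signalling list. Division by transcript length was not run, since no transcript lengths were used here. Fewer horses and a removed threshold change the counts by construction, and the cause of the other moves was not tested. The estimate for PDGFB is limited by its 1 to 9 untreated reads. Because PDGFB passed the main filter only through its treated libraries, its kept direction and call are given as a description only.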

Other observations

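The 2 tendon markers analysed, SCX and MKX, transcription factors of the tendon lineage, were called higher, with log2 fold changes of 2.40 and 2.96. Their summed level was 312 to 1218 normalized counts in untreated and 1225 to 8390.04 in treated cells, so the sums barely separated. MKX alone overlapped between groups, at 203 to 993 in untreated and 939 to 7455 in treated cells, although it was higher with treatment in every horse. Among the mural markers, DES, the muscle intermediate filament gene, had 0.870 to 7.54 normalized counts in untreated cells and 22.5 to 222 in treated cells. RGS5, MYH11 and CSPG4 were not called, at -0.31, -0.12 and 0.35 on the log2 scale. KDR, the main endothelial receptor of vascular endothelial growth factor, had 1.01 to 14.8 normalized counts in untreated and 15.5 to 40.7 in treated cells. It passed the filter on low values mainly through its treated libraries, so this difference is given as a description only.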
